A study of Mus musculus with 36 samples.

Results

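The genes described here encode voltage-gated sodium and calcium channels and the potassium channels of mouse. They were chosen by symbol alone: Kcn followed by letters and a number, Cacn followed by a, b or g, or Scn followed by a number and a or b, on autosomes. Of 130 such genes in the RefSeq annotation, 129 had a bin of the histone mark H3K9me3 in liver in at least 1 table. Their bins numbered between 1227 of 101386 autosomal bins (1.21%) and 1970 of 158810 (1.24%) in the 6 tables of the series, or 5201 distinct bins over all tables. The rule reads symbols and no measured value.

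H3K9me3 was profiled by ChIP-seq in liver tissue from male and female offspring of dams on chow (control) or on a Western-style diet (maternal obesity, MO). All animals were bred from a house colony of Reg3g fl/fl mice on a C57BL/6J background and carried 1 or 2 floxed Reg3g alleles. Offspring were killed at 3 weeks, before weaning, or at 8 weeks, after 5 weeks on chow. The 32 ChIP libraries form 8 groups of 4, and 4 input libraries were also sequenced. Each of the 6 tables pools 8 libraries, which are 2 groups of 4. They hold control females of 3 and 8 weeks, control males of 3 and 8 weeks, and MO with control animals of 1 sex at 1 age (females at 3 weeks, females at 8 weeks, males at 3 weeks and males at 8 weeks). Control libraries therefore serve in 2 tables each. The authors merged peaks within each sex, so tables of the same sex share a peak set, and the 6 tables are not independent. A table lists 1 bin of up to 501 bp for each peak, with the authors' mean level over its 8 libraries in log2 CPM, the log2 of counts scaled to library size. Values per library were not analysed here, so no spread between animals stands beside a level, no test was run, and the differences given are descriptions. The tables were scaled separately. In whole liver, a mark present in fewer cells and a mark that is weaker in each cell cannot be told apart.

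H3K9me3 is written on nucleosomes by SETDB1 and the SUV39H enzymes and read by HP1 proteins. It marks repeats and genes that are kept silent in a given cell type. Voltage-gated channels open when the membrane potential moves and carry the sodium, calcium and potassium currents of nerve, muscle and endocrine cells. A channel is built around a pore-forming alpha subunit, and accessory subunits set its gating and its place in the membrane. Hepatocytes do not fire action potentials, and most of these genes are best known in brain, heart or skeletal muscle.

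Stretches of 3 bins show what the mark sat on at channel genes. The sequences are read 5′ to 3′ on the plus strand of GRCm38, the build of the tables, from the RefSeq copy of the genome. Capitals mark CpG dinucleotides. Kcnh2 is shown because its bin had the highest level of any channel gene in control females, at chr5:24314587-24314886, outside the annotated gene. Kcnv2 is shown because its bin, inside coding sequence at chr19:27323678-27323977, had the highest level in control males. Kcnip3 is shown because its bin, in intron 1 at chr2:127512872-127513171, was among those with the lowest age difference in both sexes.
Kcnh2: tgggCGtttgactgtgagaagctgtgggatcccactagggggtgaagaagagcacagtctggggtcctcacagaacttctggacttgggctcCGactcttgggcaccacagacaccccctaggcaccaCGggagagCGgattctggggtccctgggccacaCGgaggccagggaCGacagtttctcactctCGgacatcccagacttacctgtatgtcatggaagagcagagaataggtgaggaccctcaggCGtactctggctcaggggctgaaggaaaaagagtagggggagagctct
Kcnv2: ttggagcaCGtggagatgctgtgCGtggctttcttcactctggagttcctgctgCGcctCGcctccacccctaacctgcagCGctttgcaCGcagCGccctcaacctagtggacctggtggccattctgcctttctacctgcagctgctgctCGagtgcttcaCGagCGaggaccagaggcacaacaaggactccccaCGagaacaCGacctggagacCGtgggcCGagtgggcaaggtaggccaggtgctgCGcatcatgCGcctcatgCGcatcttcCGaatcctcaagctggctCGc
Kcnip3: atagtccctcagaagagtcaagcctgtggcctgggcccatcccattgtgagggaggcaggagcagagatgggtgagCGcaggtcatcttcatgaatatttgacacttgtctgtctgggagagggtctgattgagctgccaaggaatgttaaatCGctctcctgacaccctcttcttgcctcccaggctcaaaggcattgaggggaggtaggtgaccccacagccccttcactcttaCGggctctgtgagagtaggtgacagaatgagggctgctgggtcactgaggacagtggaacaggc
The Kcnv2 stretch holds 19 CpGs, the Kcnh2 stretch 8 and the Kcnip3 stretch 3.

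The extent of the mark was measured as the share of each gene's length that lay under a listed peak. The median over the 130 channel genes was 27.4% (mean of the 6 tables), compared with 8.82% over 20665 autosomal protein-coding genes and 2.12% over 41 glutamate and GABA receptor genes, the other large set of genes of excitable cells. The receptor genes are longer than the channel genes (median 183 kb against 49.4 kb) and have a lower GC content (median 40.2% against 47.9%). In single tables, the channel gene median lay between 20.3% (males at 8 weeks) and 30.7% (males at 3 weeks). Coverage was at least 50% in every table for 31 channel genes (23.8%), against 15.8% of all protein-coding genes. At the other end, 11 channel genes (8.46%) stayed under 1% in every table, against 19.4% of all genes. The extremes lay far apart. Kcnj11, the pore of the ATP-sensitive potassium channel of pancreatic beta cells, was covered over 99.5% to 100% of its 3.83 kb in each table. Kcnn4, the intermediate-conductance calcium-activated potassium channel, was covered over 98.7% to 99.2%. Cacna1h, a T-type calcium channel pore, was covered over 96.1% to 97.4% of 62.1 kb. Kcnip4, which encodes a binding partner of Kv4 channels and spans 1136 kb, was covered over 0.374% to 0.522%. Kcnh7, a potassium channel of the ERG group, was covered over 0.171% to 0.317%. Kcnj13, an inward rectifier, was the 1 member without any bin, and no listed peak of any gene lay on it in any table.

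**Figure D1:**
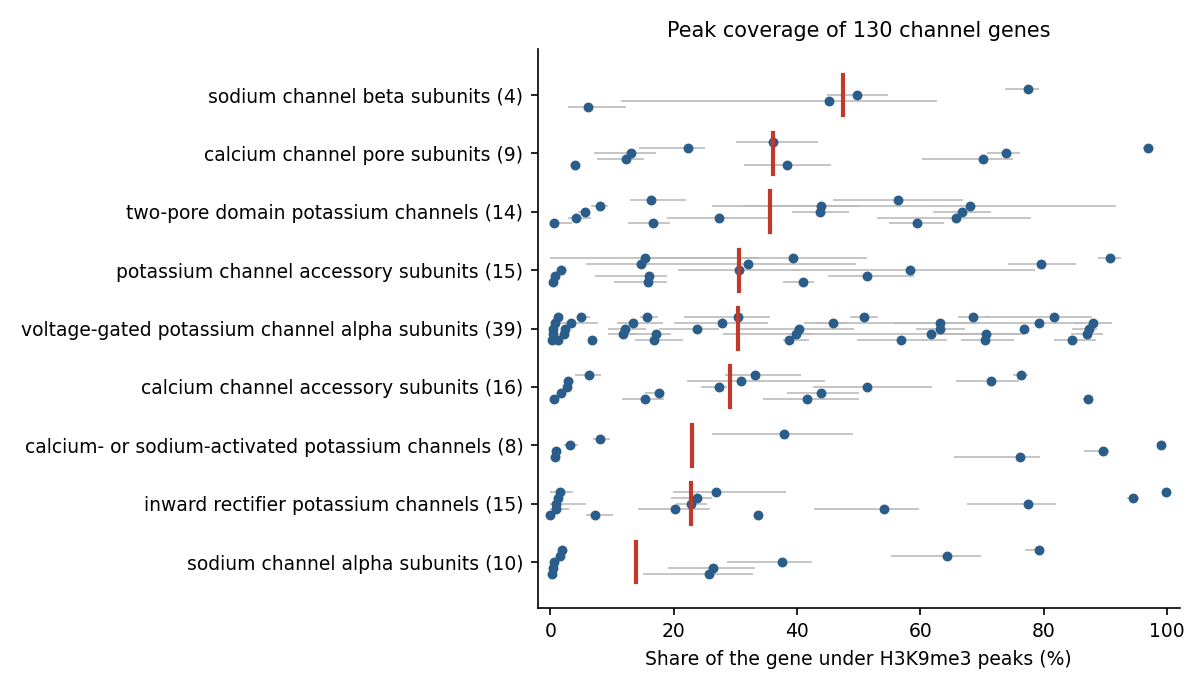
Share of each of 130 channel genes under listed H3K9me3 peaks (%), by family with the number of genes in brackets; points are the mean of the 6 tables, grey lines the range over the tables and red bars the family medians. Every family with 8 or more genes ran from under 5% to over 60%, and the family medians lay between 13.8% (sodium channel alpha subunits) and 47.5% (sodium channel beta subunits).

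Families differed less than their members did. Among calcium channel pore subunits (median 36.1%), the T-type genes Cacna1h, Cacna1i and Cacna1g were covered over 96.8%, 73.9% and 70.2% of their length (mean of the 6 tables). The L-type genes were lower, with 38.4% for Cacna1s of skeletal muscle, 13.1% for Cacna1d and 12.2% for Cacna1c of heart and smooth muscle. Cacna1a (P/Q-type) stood at 36.1%, Cacna1b (N-type) at 22.3% and Cacna1e (R-type) at 4.03%. No T-type gene was within the range of the other pore subunits.

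The sodium channel alpha subunits (median 13.8%) fell into a high and a low set. Scn4a of skeletal muscle was covered over 64.3% and Scn8a of neurons over 37.6%. The sensory neuron channels Scn11a and Scn10a, both on chromosome 9, had 26.3% and 25.7%. The 5 genes Scn9a, Scn1a, Scn2a, Scn3a and Scn7a had between 0.276% and 1.95%, and all of these lie on chromosome 2. Among the beta subunits, which modulate the alpha subunits, Scn3b had 6.10%.

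Among the voltage-gated potassium channel alpha subunits (39 genes, median 30.3%), the Shaw-type gene Kcnc1 had 87.2% whereas its relative Kcnc2 had 2.17%. Kcnb2, a Shab-type gene, had 1.26%. Kcnh2, the hERG channel of cardiac repolarisation, had 81.6%, and its close relative Kcnh7 had 0.230%. The neuronal Kcnq3 had 2.42%. The inward rectifiers (15 genes, median 22.8%) were highest at Kcnj11 (99.7%) and Kcnj4 (94.5%). Kcnj2, the Kir2.1 channel that sets the resting potential of heart muscle, had 0.930%, and only Kcnj13, with none, was lower in this family. The calcium- or sodium-activated channels (8 genes, median 23.0%) were split in the same way between Kcnn4 and Kcnn1 (98.9% and 89.6%) and Kcnn2 and Kcnt2 (0.830% and 0.918%). The two-pore domain channels, which carry background potassium current (14 genes, median 35.6%), had a narrower top, with 68.0% for Kcnk16 and 66.7% for Kcnk7. Accessory subunits spread as widely as the pores they serve, from Kcnab2 (90.7%) and Kcnip2 (79.6%) to Kcnab1 (0.817%) and Kcnip4 (0.435%) for potassium channels, and from Cacnb3 (87.1%) to Cacna2d1 (0.623%) for calcium channels. Within a family, close relatives could thus stand at opposite ends.

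The base composition of a gene tracked its coverage closely. Across the 130 channel genes, the rank correlation of coverage with the GC content of the gene was 0.93, compared with 0.81 across all protein-coding genes; points are genes that share the same libraries, and these are descriptions. The rank correlation with gene length was −0.53. Of the channel genes, 50 had a GC content of 50% or more and a median coverage of 69.4%, close to the 66.1% of all 5442 such genes. The median was 23.7% for 43 channel genes of 45 to 50% GC (17.9% for all genes), 3.03% for 18 genes of 40 to 45% (2.49%) and 0.709% for 19 genes under 40% (0.681%). From the highest to the lowest GC class, the glutamate and GABA receptor genes had 63.8% (10 genes), 18.3% (3), 2.92% (9) and 0.907% (19). The channel genes at least 50% covered in every table were all in the highest GC class. GC-rich genes were also a larger share of the channel genes (38.5%) than of all genes (26.3%). An exception was Kcnk18, a two-pore channel of sensory ganglia, with 50.4% GC and a mean coverage of 0.583%. Length alone gave a different picture: among genes under 20 kb, the median was 49.7% for 39 channel genes and 17.4% for all genes, whereas among genes of 300 kb or more it was 1.72% for 21 channel genes and 1.81% for all genes. The part of base composition in the coverage was not tested.

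**Figure D2:**
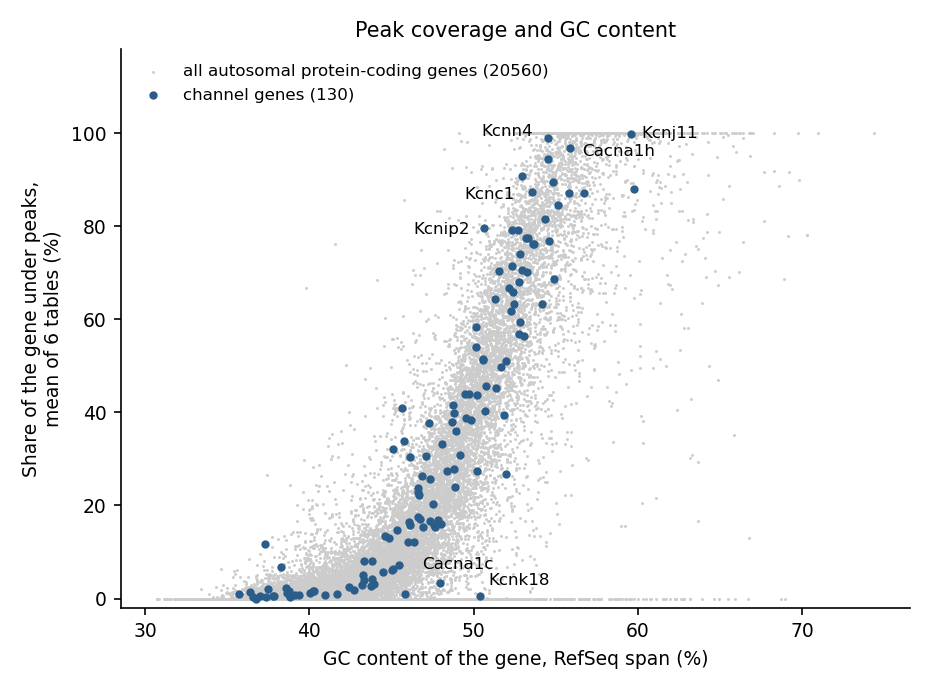
Share of a gene under listed peaks (%, mean of the 6 tables) against the GC content of its RefSeq span (%), for genes of at least 30% GC; blue points are the 130 channel genes and grey points other autosomal protein-coding genes. Channel genes lie along the band of all genes (rank correlation 0.93), and Kcnk18 lies below it.

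Grouped by the tissue in which they are best known, channel genes were not uniform either. Among 9 heart genes, those with high coverage included Kcnh2 (81.6%), Kcnip2 (79.6%) and Kcne1 (58.3%), while Kcnq1 (23.7%) and Cacna1c (12.2%) were intermediate, and Cacnb2 (1.72%), Kcnj2 (0.930%) and Kcnd2 (0.520%) were low. The 15 brain genes had a median of 22.3%, close to the 23.7% of the heart genes, with 2 at 50% or more and 5 under 5%. Kcnc1 (87.2%) was the highest, Cacng2 and Kcna1 had 44.0% and 39.8%, Kcnd3 and Kcna2 had 17.2% and 15.7%, and Scn1a (1.63%), Scn2a (0.596%) and Scn3a (0.422%), neighbours on chromosome 2, were the lowest. The 5 skeletal muscle genes ran from Cacnb1 (76.2%) and Scn4a (64.3%) to Cacna2d1 (0.623%). For comparison, 8 hepatocyte genes were read in the same way, since the mark is not usual on genes that liver transcribes. Alb, Ttr and Cps1 had no coverage in any table, Tat, Apob and Serpina1a had means of 0.534%, 1.58% and 1.85%, Hnf4a had 13.8% and Apoa1 67.5%. By bins these genes were not free of the mark: 6 of the 8 had a bin assigned to them in control females and 7 in each other table, and Hnf4a and Serpina1a had a promoter bin in all 6 tables. Apoa1, a gene of 1.84 kb with 55.9% GC, had 0% in control females, 59.8% in the other female tables and 95.1% in each male table. The tables hold no RNA.

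Coverage of a channel gene spanned a median of 6.04 percentage points over the 6 tables, against 3.71 for all protein-coding genes. It varied by more than 30 percentage points for 8 channel genes (6.15%, against 6.24% of all genes), from which those below were picked out after their values were seen. Kcnk16 of the pancreas had 91.7% in females at 3 weeks and 26.2% in females at 8 weeks and in control females, while all male tables had 87.9%. Kcne1, the accessory subunit of the slow cardiac potassium current, had 78.5% in females at 3 weeks against 39.1% in the other female tables and 64.4% in the male tables. Kcne2 had 45.8% to 49.6% in the female tables, 20.9% in control males and in males at 3 weeks, and 5.76% in males at 8 weeks. Scn2b ran from 62.6% in control females to 11.5% in males at 8 weeks. A peak counts only where the table lists it, and the tables differ in the number of listed peaks, so these shares move with what was listed.

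Counted as bins, channel genes were present throughout: 127 genes had a bin in all 6 tables, and Cacng6 and Kcne3 in some of them. In single tables, between 98.5% and 99.2% of channel genes had a bin, against 76.9% to 79.8% of 20665 autosomal protein-coding genes, whose median length is 17.5 kb against 49.4 kb. The glutamate and GABA receptor genes were alike in this, with 97.6% to 100%. At least 10 bins in every table were listed for 41 channel genes, and 1 to 3 for 14. The most distinct bins fell to long genes, led by Cacna1a with 197, Cacna1c with 193 and Cacna1d with 149, the pore subunits of the P/Q-type channel and of the main L-type channels. Kcnj6, the GIRK2 channel opened by G proteins, had 146, Kcnn3, a small-conductance calcium-activated channel, 127, Kcnh1, the ether-a-go-go channel, 126, and Scn8a 121. Kcng1, a silent subunit that modifies Kv2 channels, had 133 bins although the gene spans 21.4 kb. Of these, 19 lay inside the gene, and the others were assigned to it as the nearest gene. Cacna1a had 55 bins in control females, 59 and 47 in females at 3 and 8 weeks, 67 in control males, and 77 and 43 in males at 3 and 8 weeks. Each of these 8 genes had more bins at 3 than at 8 weeks in both sexes, as did all autosomal bins together.

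Overlapping peaks of the 6 tables were joined into 2261 loci of channel genes, of which 767 (33.9%) were listed in every table, against 34.6% of 185707 loci joined in the same way from all autosomal peaks. The longest was 50354 bp over Cacna1h, at chr17:25369859-25420212, and it was present in all 6 tables, as was a locus of 41230 bp over Kcnab2. A locus of 26528 bp over Kcnj4, an inward rectifier, had a bin assigned to the gene in 5 tables. In males at 3 weeks the bin listed for this peak was assigned to another gene, and 93.5% of Kcnj4 was covered in each male table. Others over 20 kb included those on Cacna1i, Cacna1g, Kcnt1, Kcnc1 and Kcnh2. In contrast to these, most loci were short, with a median of 911 bp. The female tables alone held 369 loci (16.3%, against 15.7% of all autosomal loci) and the male tables alone 543 (24.0%, against 24.9%). All 3 female tables but no male table held 104 loci (4.60%, against 4.76%), with 141 (6.24%, against 6.53%) the other way round. The shares of channel gene loci were thus close to those of all loci. Since the 3 tables of a sex share a peak set, a locus in all of them was not found 3 times independently. Kcnh1, picked out after its values were seen, had 7 loci of the first kind and 2 of the second within its region of chromosome 1. In the 4 tables of single ages, 128 loci (5.66%, against 6.03% of all autosomal loci) were listed in both sexes at 3 weeks and in neither at 8 weeks. The reverse held for 1 locus (0.0442%, against 0.335%). These counts rest on peaks whose bin was assigned to a channel gene. When any listed peak on a locus was counted, a choice made after seeing the data, 795 of 2259 loci (35.2%) were in every table, 101 and 141 were in all tables of 1 sex only, 128 were in both sexes at 3 weeks only, and the 8-week locus was lost (0). The tables listed between 101386 autosomal bins (males at 8 weeks) and 158810 (males at 3 weeks), and the part of this in the counts of loci was not tested.

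Bins of channel genes lay inside genes more often than bins in general. In control females, 55.1% were in the gene body, 16.3% in a promoter (within 3 kb of a start site) and 28.6% between genes, compared with 40.3%, 21.6% and 38.0% of all autosomal bins. In control males the shares were 56.1%, 14.6% and 29.2%, against 41.7%, 20.3% and 37.9%. The first intron alone held 15.9% of channel gene bins in control females and 9.00% of all bins.

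Promoters were examined in the RefSeq windows of 300 bases around start sites, 250 upstream and 50 downstream, which were at hand for 132 start sites of 96 channel genes. Between 75.8% and 81.8% of these windows lay at least partly under a peak in each table, compared with 44.1% to 49.8% of 31396 windows of all autosomal genes. The latter belong to 25748 genes, not only protein-coding ones, and had a median of 7 CpGs against 9 in the channel windows. All 6 tables covered 94 channel windows (71.2%, against 35.2% of all windows) and no table covered 21 (15.9%, against 44.1%). Covered windows were richer in CpG: the median was 16 CpGs in the channel windows covered in every table and 4 in those covered in none, and 20 and 3 among all genes. The contrast is shown by the 250 upstream bases of 3 start sites, 5′ to 3′ on the strand of the gene, which is the minus strand for each, with CpGs in capitals (RefSeq, GRCm38). Those of Kcnh2 (chr5:24329592-24329841) and Kcnj6 (chr16:94997697-94997946) lay wholly under a peak in all 6 tables, and those of Kcnj13 (chr1:87394730-87394979) lay under none.
Kcnh2 upstream: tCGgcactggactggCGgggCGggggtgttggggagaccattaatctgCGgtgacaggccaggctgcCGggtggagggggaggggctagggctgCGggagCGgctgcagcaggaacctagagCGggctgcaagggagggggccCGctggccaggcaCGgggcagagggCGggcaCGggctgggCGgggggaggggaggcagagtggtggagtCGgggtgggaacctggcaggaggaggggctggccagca
Kcnj6 upstream: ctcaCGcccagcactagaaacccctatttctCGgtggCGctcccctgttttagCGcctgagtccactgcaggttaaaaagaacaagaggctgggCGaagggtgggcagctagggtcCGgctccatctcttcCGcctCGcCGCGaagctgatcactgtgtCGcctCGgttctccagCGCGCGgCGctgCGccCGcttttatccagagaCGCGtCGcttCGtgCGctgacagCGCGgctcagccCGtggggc
Kcnj13 upstream: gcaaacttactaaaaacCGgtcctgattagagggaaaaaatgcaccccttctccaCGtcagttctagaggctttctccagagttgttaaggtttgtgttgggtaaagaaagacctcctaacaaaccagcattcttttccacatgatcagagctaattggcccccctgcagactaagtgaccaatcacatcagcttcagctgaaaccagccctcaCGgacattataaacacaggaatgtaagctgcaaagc
They hold 14, 26 and 3 CpGs in this order. Over all 132 start sites, 69 had the 250 upstream bases wholly under a peak in every table (median 16 CpGs, 64% GC), 40 partly or in some tables (5 CpGs) and 23 under no peak in any table (3 CpGs, 46.8% GC). The hexamer TGCCGC, bound by the zinc finger protein ZFP57 when methylated, was found on either strand in 21 of the 132 windows (15.9%) and in 11.6% of all windows.

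Levels were close to those of other bins. The median level of channel gene bins was 2.61 log2 CPM in control females, 2.38 and 2.60 in females at 3 and 8 weeks, 2.07 in control males and 2.00 and 2.71 in males at 3 and 8 weeks. The medians of all autosomal bins were 2.64, 2.40, 2.62, 2.10, 2.03 and 2.74 log2 CPM in the same order, each slightly above that of channel genes. Between 44.7% and 46.9% of channel gene bins were above the median level of their table. High levels were under-represented, with 2.73% to 3.91% of channel gene bins above the level that 5.00% of all bins exceed. The glutamate and GABA receptor genes differed from channel genes in this, with 55.5% to 59.8% of bins above the table's median and 7.63% to 9.81% above that high level. Peaks of channel genes were long, with a median of 1050 bp in control females against 839 bp for all bins and 571 bp for the receptor genes, and the longest peak with a channel gene bin was 42653 bp.

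The bins with the highest levels belonged to 8 genes, found as the 5 highest in each of the control tables with 1 bin per gene, and their levels are given in all tables. At Kcnh2 the bin lies 4601 bp beyond the end of the gene's span (the stretch printed above). Its level was 4.06 log2 CPM in control females, 3.70 and 4.53 in females at 3 and 8 weeks, 3.55 in control males and 4.55 in males at 8 weeks. No bin overlapping it by at least 50% was listed in males at 3 weeks. It was the highest of the 8 in each female table. At Kcnv2, a silent subunit of Kv2 channels known from cone photoreceptors, the bin lies in coding sequence 990 bp from the start site. Its level was 3.67 log2 CPM in control males, 2.38 and 4.61 in males at 3 and 8 weeks and 2.47 and 3.45 in females at 3 and 8 weeks. It was nearer to the ordinary level at 3 weeks than at 8 weeks in both sexes.

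Kcnip4 held its high bin in intron 1. Its level was 3.85 log2 CPM in control females, 3.40 and 3.98 in females at 3 and 8 weeks, 3.41 in control males and 2.92 and 4.13 in males at 3 and 8 weeks. This bin is 98.8% repeat-masked, and 1.91% of its 31-base words occur once in the genome. Reads from other copies may therefore add to its level, and how reads were placed was not examined. The Kcnj6 bin, in intron 3 of 4 and built of words found once, had 3.66 log2 CPM in control females, 3.44 and 3.69 in females at 3 and 8 weeks and 3.96 in males at 8 weeks, with no matching bin in the other male tables. The 4 remaining bins lie between genes, 116342 bp from the start of Kcnq5, 384757 bp from Kcnd2, 61003 bp from Kcnn2 and 172013 bp from Kcnj16, and were assigned to these genes only as the nearest. Their levels in control females were 3.86 (Kcnq5), 3.64 (Kcnd2), 3.57 (Kcnn2) and 3.41 (Kcnj16) log2 CPM, and between 81.4% and 97.1% of their bases are masked. Of their words, 52.1% (Kcnq5), 68.6% (Kcnd2), 36.5% (Kcnn2) and 17.6% (Kcnj16) occur once.

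**Figure D3:**
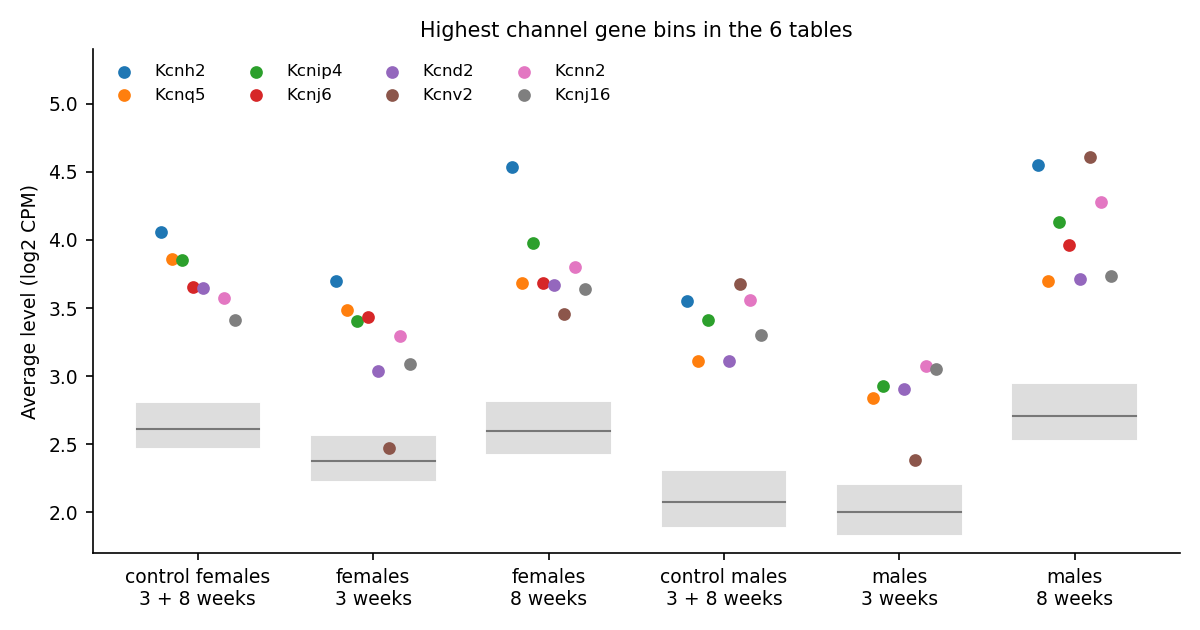
Average level (log2 CPM, the authors' mean over 8 libraries) of the highest channel gene bin of 8 genes in each table; grey boxes span the middle 50% of all channel gene bins of the table and the line is their median. The points lie above the boxes in every table except Kcnv2 in females at 3 weeks, and a missing point means that no bin overlapping by at least 50% was listed.

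High channel gene bins in general held more repeats. In control females, the highest 10% of channel gene bins (143 bins) had a median of 30.3% masked bases against 9.18% in the other 1284, and 37.8% of them lay between genes against 27.6%. In control males the medians were 27.7% and 9.28%. All autosomal bins had the same contrast, at 57.0% and 10.8% in control females, and channel gene bins as a whole were less masked than all bins (median 9.58% against 11.9%).

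Promoters with high levels were listed by the same cut. A bin within 1 kb of a start site was in the highest 10% for 21 genes in control females and 27 in control males, or 37 genes in either. These were 22 of 150 start-site bins (14.7%) in control females and 29 of 151 (19.2%) in control males. Over all autosomal bins, 10.8% and 11.3% of start-site bins were in the highest 10% of all bins of their table. That cut was higher, at 3.07 against 2.97 log2 CPM for channel gene bins in control females and 2.59 against 2.54 in control males. Of the 37 genes, 10 had a matching bin in all 6 tables: Kcnk10, Kcnab1, Scn9a, Kcnip4, Cacna1d, Cacng8, Kcnc2, Kcne4, Scn10a and Cacna1a. The start sites are those of any annotated transcript. The bins of Cacna1d, Kcnc2 and Scn10a lie at starts inside the gene, and all 501 bases of the Kcnc2 bin are coding. The Kcne4 bin lies 869 bp from a start site, and the RefSeq promoter window of Kcne4 lay under no peak in any table. Kcnk10, the TREK-2 background channel, had 3.28 log2 CPM in control females, 2.74 and 3.28 in females at 3 and 8 weeks, 2.83 in control males and 2.76 and 3.24 in males at 3 and 8 weeks. Scn9a, the Nav1.7 channel of pain-sensing neurons, had 3.23, 2.88, 3.18, 2.87, 2.57 and 3.68 log2 CPM in the same order of tables. Kcnip4 had 3.20, 2.65, 3.35, 2.72, 2.47 and 3.28 log2 CPM. These 3 genes and Kcnab1 combine a high bin at the start site with coverage of under 5% of the gene, as does Kcnc2 at its start inside the gene. The bins at the start sites of these genes consist of words found once in the genome.

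Several of the named bins shared sequence. The 17 distinct bins named for level or for age difference were compared in both orientations, and 7 of 136 pairs shared a run of at least 15 bases, where the median longest run was 9. These pairs joined bins assigned to Kcnq5, Kcnd2, Kcnb2 and Kcnn2, and the longest run measured 26 bases. Kcnq5 at chr1:22078285-22078584, Kcnd2 at chr6:20830346-20830645 and Kcnb2 at chr1:15497410-15497709 are printed on the plus strand (RefSeq, GRCm38), with the bases that lie in such a run in capitals.
Kcnq5: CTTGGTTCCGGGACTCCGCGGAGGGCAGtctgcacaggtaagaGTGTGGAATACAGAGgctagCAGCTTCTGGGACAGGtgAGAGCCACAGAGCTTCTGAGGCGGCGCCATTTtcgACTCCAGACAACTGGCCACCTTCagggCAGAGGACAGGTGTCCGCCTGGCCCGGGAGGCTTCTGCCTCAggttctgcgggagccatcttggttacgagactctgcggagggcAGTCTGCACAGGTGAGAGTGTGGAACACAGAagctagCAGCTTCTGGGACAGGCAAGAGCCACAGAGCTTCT
Kcnd2: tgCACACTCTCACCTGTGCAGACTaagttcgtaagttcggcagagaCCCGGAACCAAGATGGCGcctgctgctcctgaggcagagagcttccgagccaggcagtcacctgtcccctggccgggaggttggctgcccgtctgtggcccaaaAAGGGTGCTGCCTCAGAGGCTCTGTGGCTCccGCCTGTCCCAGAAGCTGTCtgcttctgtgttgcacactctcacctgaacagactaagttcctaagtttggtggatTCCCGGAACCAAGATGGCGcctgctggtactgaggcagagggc
Kcnb2: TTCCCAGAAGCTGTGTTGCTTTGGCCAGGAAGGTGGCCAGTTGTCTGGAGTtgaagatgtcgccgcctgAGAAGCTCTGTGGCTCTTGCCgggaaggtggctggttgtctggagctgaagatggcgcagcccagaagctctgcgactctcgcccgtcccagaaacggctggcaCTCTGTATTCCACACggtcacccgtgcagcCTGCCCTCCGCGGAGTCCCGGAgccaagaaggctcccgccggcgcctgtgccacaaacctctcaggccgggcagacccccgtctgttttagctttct
Shared bases make up 222 of the 300 in the Kcnq5 stretch, 108 in the Kcnd2 stretch and 109 in the Kcnb2 stretch. These 3 bins are 97.1%, 81.4% and 90.1% masked. Since the bins were chosen for their values, the runs are a description.

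**Figure D4:**
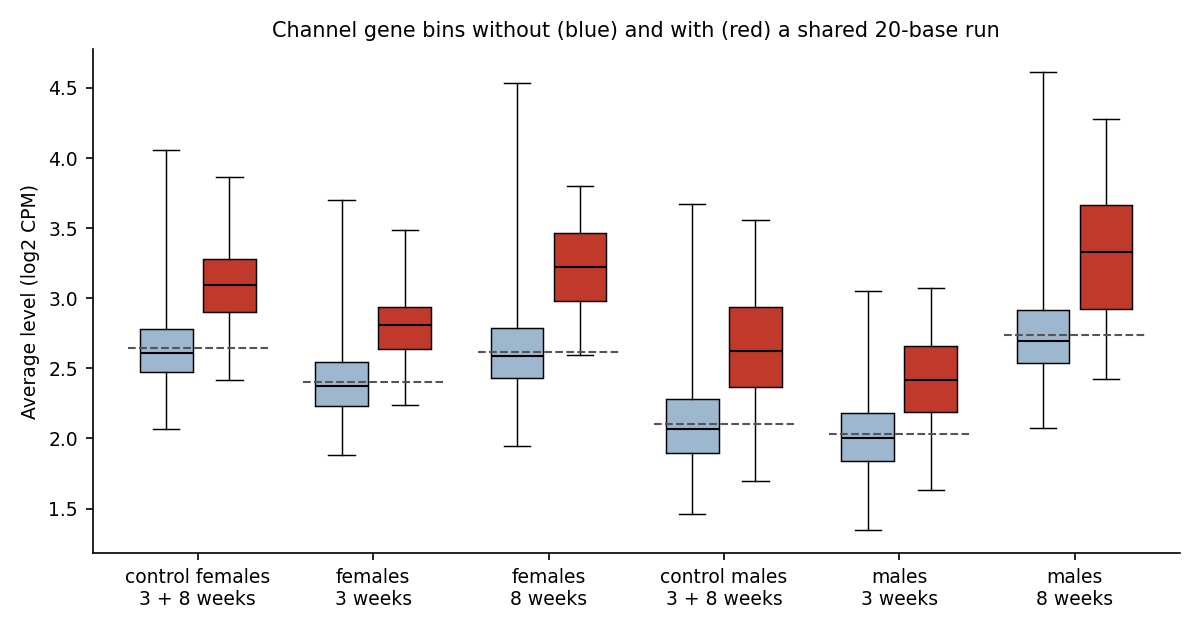
Average level (log2 CPM) of channel gene bins without (blue) and with (red) a 20-base run from the shared sequence, in each table; boxes are the quartiles, whiskers the range, and dashed lines the median of all autosomal bins. The median with a run was 3.09 log2 CPM in control females and 3.33 in males at 8 weeks, against 2.61 and 2.70 without.

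Runs of 20 bases from this sequence were then sought in all bins. They occurred in 30 to 35 channel gene bins of each table, of 20 genes in all and of 14 genes in every table. This was between 1.78% and 2.77% of channel gene bins, and in each table a lower share than that of all autosomal bins, which was between 1.99% and 3.19%. In control females these bins had a median of 3.09 log2 CPM and 30 of 35 were above the table's median, whereas channel gene bins without a run had a median of 2.61. All autosomal bins with a run were high as well, with a median of 3.10 against 2.64 for all bins of the table. In males at 8 weeks the medians were 3.33 and 2.70 log2 CPM, with 30 of 34 above the table's median. The bins that supplied the runs are among these and were picked for their high levels or their age differences, so no weight rests on the difference.

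The age question was addressed by the difference of the authors' mean levels between the table of 8 weeks and that of 3 weeks within a sex, over both diets and for bins with identical coordinates. The median difference of channel gene bins was 0.21 log2 CPM in females (846 bins of 119 genes) and 0.64 in males (765 bins of 119 genes). All autosomal bins had medians of 0.22 and 0.63, so that channel genes differed from them by −0.01 in females and 0.01 in males. The tables were scaled separately, so the general shift cannot be told apart from the scaling, and single bins are read against it. Of the channel gene bins, 39 in females (4.61%) and 39 in males (5.10%) lay above the 95th percentile of all bins, and 40 (4.73%) and 25 (3.27%) below the 5th. The median of channel gene bins relative to all bins differed little by class, with 0.02 for promoters, −0.04 for gene bodies and 0.04 between genes in females, and 0.01, −0.01 and 0.02 in males.

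Bins of the sexes were paired by an overlap of at least 50%, which gave 331 pairs in 90 channel genes. Their age differences had a rank correlation of 0.44 between females and males, and 66.5% of pairs lay on the same side of the median of all bins in both sexes. The 32465 pairs of all autosomal bins had 0.42 and 64.5%, so the likeness of the sexes was general.

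**Figure D5:**
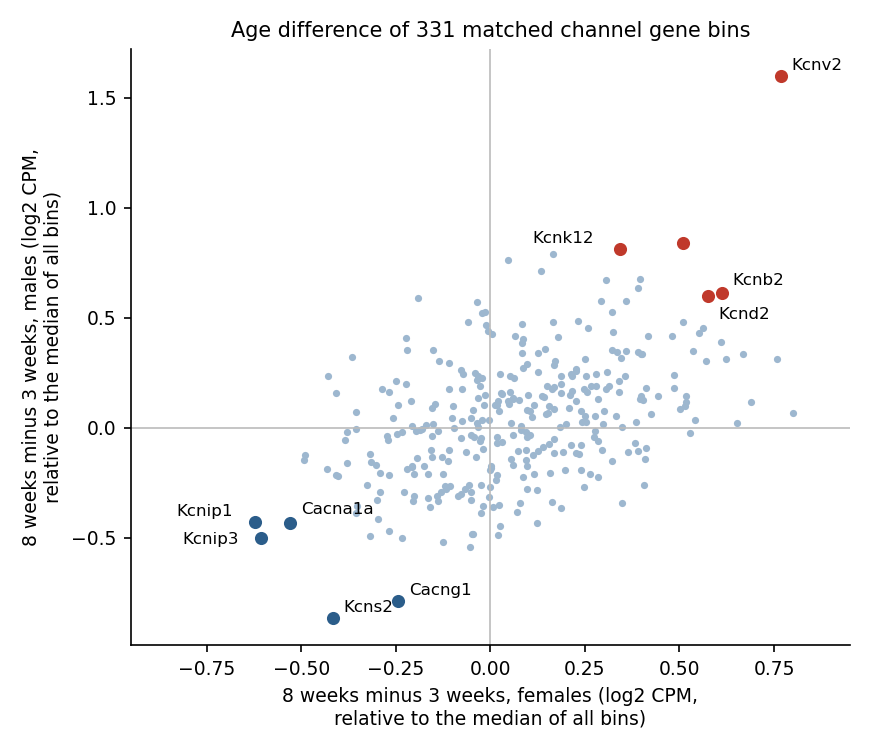
Difference of the average level between 8 and 3 weeks in females (x axis) and males (y axis), in log2 CPM relative to the median of all bins of that sex, for 331 channel gene bins matched between the sexes; red and blue points are the 5 bins with the highest and the 5 with the lowest mean over the sexes, and those described in the text are labelled. Kcnv2 stands apart from the other pairs, at 0.77 in females and with the highest value of all pairs in males.

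The 5 pairs with the highest and the 5 with the lowest mean difference on the same side in both sexes were named by rule. Kcnv2 had the highest: its level was 2.47 log2 CPM at 3 weeks and 3.45 at 8 weeks in females, and 2.38 and 4.61 in males. The male difference of 2.23 log2 CPM was the highest of any autosomal bin compared in males. Of the other pairs at the high end, Kcnb2, a Kv2 delayed rectifier, had 2.34 and 3.17 log2 CPM in females and 2.12 and 3.36 in males at its later intron. A bin 188154 bp upstream of Kcnd2, the Kv4.2 channel, had 2.57 and 3.36 in females and 2.58 and 3.81 in males. Kcnk12, a silent two-pore subunit, had 3.00 and 3.55 in females and 2.56 and 4.00 in males at its first intron. At each of these the 8-week level was higher in both sexes. The bins of Kcnb2, Kcnd2 and Kcnk12 are 90.1%, 86.5% and 66.7% masked, while that of Kcnv2 has no masked base. Of the 31-base words in these bins, 34.5% (Kcnb2), 15.5% (Kcnd2) and 27.6% (Kcnk12) occur once in the genome, against 100% of the Kcnv2 words. Reads from other copies may therefore add to the levels at Kcnb2, Kcnd2 and Kcnk12, and how reads were placed was not examined.

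At the low end, the bin 34307 bp from the start of Kcns2, a silent Kv subunit, had 2.93 log2 CPM at 3 weeks and 2.73 at 8 weeks in females, and 2.83 and 2.60 in males. A bin near Cacng1, the gamma subunit of the skeletal muscle calcium channel, had 2.49 and 2.46 in females and 2.47 and 2.31 in males. In both, the 8-week level was the lower one in each sex. The Kcns2 bin is 100% masked and 34.8% of its words occur once, so the same limit holds for it, while 98.1% of the Cacng1 words occur once. The other 3 were lower at 8 weeks in females and higher in males, though by less than the median of all bins. Kcnip3, the DREAM protein, had 2.59 and 2.20 log2 CPM in females and 2.39 and 2.53 in males. Kcnip1, another Kv4 partner, had 2.68 and 2.28 in females and 2.24 and 2.44 in males. Cacna1a had 2.92 and 2.60 in females and 2.39 and 2.59 in males. The first 2 have bins in first introns, and both genes encode calcium-binding partners of Kv4 channels.

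Each sex also had bins with larger differences that had no matched bin in the other sex or did not share its side. In females the lowest lay near Kcnj5, with 2.95 log2 CPM at 3 weeks and 2.38 at 8 weeks. In males a 3′ UTR bin of Kcnc1 had 2.29 and 4.26 log2 CPM and a later intron bin of Cacna2d3 had 2.26 and 4.00. Bins with a 20-base run of the shared sequence had a median age difference of 0.43 log2 CPM in females (29 channel gene bins, 26 above the median of all bins) and 0.87 in males (31 bins, 28 above). Over all autosomal bins with such a run, the medians were 0.46 in females (2823 bins, 81.9% above the median of all bins) and 0.87 in males (2921 bins, 77.3% above). Part of the runs came from bins named for their age difference, so these values describe the same bins again. Across channel gene bins the age difference had a rank correlation of 0.26 with GC content in females and 0.25 in males, and the part of base composition in it was not tested.

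The binding motif of REST, the repressor of neuronal genes in non-neuronal tissue, was sought in the bins. This motif, RE1, was read over 16 bases on both strands. It was found in 2 to 7 channel gene bins of a table, at 10 distinct sites in 10 genes. The share of channel gene bins was between 0.152% (males at 3 weeks) and 0.414% (females at 3 weeks), against 0.110% and 0.104% of all autosomal bins in these tables. In males at 8 weeks it was 0.163% against 0.116%. The counts are too few to rank the sets. The same 16 bases lay at Cacna1b (chr2:24762084-24762099), Scn10a (chr9:119706902-119706917) and Scn3b (chr9:40269744-40269759), all genes of neurons, on the plus strand for Cacna1b and on the minus strand for the others.
RE1 site: TCAGCACCACGGACAG
No match lay in the 132 promoter windows of channel genes, and 20 (0.0637%) lay in those of all genes. A match says nothing of whether REST was bound.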

How the data were processed

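Liver H3K9me3 ChIP-seq was read from 6 deposited tables. Before deposit, reads had been aligned by the authors with BWA to mm10 (GRCm38) and broad peaks found with MACS2, less blacklisted regions. Peaks were then merged within each sex and cut into bins, in which the authors counted reads with featureCounts before edgeR and ChIPseeker. Build and caller are also named in the submitters' processing notes. The authors' deposited average per bin is a log2 CPM value, printed as their mean over 8 libraries. The deposited log2 fold changes, p-values and FDRs of the authors' own comparisons were not used. Depth per library was not analysed here, which limits the precision that can be stated.

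Checks of the tables found no repeated bin, no bin past a chromosome end and 1 listed bin for each peak. How that bin was chosen is not stated. Bins were matched to channel genes by symbol. Coverage is the share of a RefSeq gene span under peaks with a listed bin, whichever gene the bin was assigned to. GC, CpG, masked bases (soft-masked in the RefSeq GRCm38 sequence), word copies and motifs were computed from that genome, and 132 of 132 channel gene promoters from the RefSeq table were identical to it. Age differences used bins with identical coordinates in 2 tables of 1 sex.

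Named genes were the 8 with the most distinct bins, the 5 highest bins in each control table, the 5 highest and 5 lowest age differences on 1 side of the all-bin median in both sexes, and promoter bins within 1 kb of a start site in the highest 10% of channel gene bins, with 1 bin per gene except for promoters. The age rule was first written for bins identical in 4 tables. Since the sexes had separate peak sets and 1 channel gene bin met it, bins were paired between the sexes by an overlap of at least 50%, chosen after seeing the data. The members and gene lists were chosen with earlier results of these data known. Alternatives were bins above the table's median level, single-bin peaks, a 1 kb promoter, counts by gene, other overlaps and peaks of the gene's own bins. Functions were tested on simulated data. Python 3.11.15, numpy 2.4.6, pandas 2.3.3, scipy 1.17.1 and matplotlib 3.10.9 were used. Input libraries were not used here, and values of some channel genes, among them 1 named by the age rule, are not reported here.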

Additional observations from a re-analysis of the deposited data

How the results depend on the processing

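No paired analysis was possible because the tables hold averages over 8 libraries and no value per library, and for the same reason no library could be left out. Restricting to bins above the table's median level left 647, 755, 645, 844, 890 and 556 channel gene bins (control females, females at 3 and 8 weeks, control males, males at 3 and 8 weeks), with median levels of 2.82, 2.58, 2.82, 2.32, 2.22 and 2.96 log2 CPM, and raised the promoter share to 18.9% in control females, 18.9% in females at 8 weeks and 21.6% in males at 8 weeks, while it was 13.9% in place of 14.9% in females at 3 weeks. Peaks no longer than 1 bin left 416, 512, 389, 598, 660 and 378 bins, with medians of 2.68, 2.43, 2.68, 2.10, 2.04 and 2.73 log2 CPM. Counted by gene, the tables held 128 genes (each female table) or 129 (each male table). A promoter of 1 kb held 10.5%, 9.23%, 11.2%, 8.28%, 8.27% and 11.7% of bins. The age difference became 0.26 log2 CPM in females and 0.73 in males for bins above both tables' medians, and 0.23 in females for single-bin peaks. Relative to the median of all bins it was −0.01 (−0.012) in females, which turns its sign, and 0.01 (0.0074) in males. Counting any listed peak on a locus took the loci of 8 weeks alone from 1 to 0. Over all these alternatives, 46 values moved by less than their interval or by under 1.5 times, 44 moved by more and 1 turned its sign. Among the 46 were coverage by a gene's own peaks and bins per gene length. The interval is one over bins, which share the same libraries, so it holds no spread between animals. The 10 genes named for age were all found again with the looser overlap tried (25%), and 7 of them with the stricter one (75%). The part of sequencing depth in which peaks are listed was not tested.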

Other observations

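Loci listed in every table of 1 sex and in none of the other were spread over many channel genes, though as a share of all loci they were no more frequent there (4.60% for females and 6.24% for males) than over all autosomal peaks (4.76% and 6.53%). Cacna2d3, an accessory calcium channel subunit, had 7 that were listed for females and 8 for males, Cacna1c had 4 and 7, and Kcnk2, the TREK-1 background potassium channel, had 6 and 4. Kcnh1, with 7 and 2, was the most uneven of these 4 genes, which were picked out after their values were seen. No test was run on these counts.

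The glutamate and GABA receptor genes, read in the same way, had a median age difference of 0.25 log2 CPM in females (356 bins) and 0.66 in males (318 bins), compared with 0.21 and 0.64 for channel genes. Their bins held more repeats, with a median of 24.2% masked bases in control females against 9.58% for channel genes. Of the receptor genes, 46.3% had a GC content under 40%, compared with 14.6% of the channel genes.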
